A study of Homo sapiens with 9 samples.

Results

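Connexins are the proteins that build gap junctions. The connexin genes described here are GJA1, GJA3, GJB2, GJB5, GJB6 and GJC1, 6 of the 21 connexin genes and of 58051 genes in the count table. They were taken by symbol from a list that was set with earlier results of these data known. All 6 passed the filter on low counts. RNA was measured in A431, a line from a human epidermoid carcinoma that carries its own mutant p53, as 3 poly(A) RNA-Seq libraries in each of 3 groups. A431 parental (mutp53) cells were unmodified. A431 Ctrl (mutp53) cells had received a CRISPR construct with an empty vector guide and keep mutant p53, and A431 p53 KO cells had received a construct against p53. No other treatment is given for any line. All lines were raised from single colonies, and cells were harvested 48 h after settling in 6-well plates, so a difference between lines and a difference between colonies cannot be told apart. How many colonies stand behind each group, and whether the 3 libraries come from separate cultures, is not given in the sources used here. The p-values therefore measure only the spread between these libraries.

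A connexin crosses the membrane several times, assembles into a hexagonal hemichannel, and docks with a hemichannel of the neighbouring cell to form a channel for ions and small molecules. Keratinocytes make several connexins at once, and which ones are made changes with their position and differentiation in the epidermis. GJA1 encodes Cx43, the most widely expressed connexin, whose long cytoplasmic tail is phosphorylated by several kinases and binds the scaffold protein ZO-1. GJB2 (Cx26) and GJB6 (Cx30) can form mixed channels, and mutations in either cause hearing loss and skin disease. GJA3 (Cx46) is best known from the lens, GJC1 (Cx45) from heart and smooth muscle, and GJB5 from stratified epithelium.

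Library totals ranged from 19783778 to 29840452 counts. Of 10 squamous markers 9 had at least 100 counts in every library. The exception was KRT14, a basal keratin, with 0 to 3 counts in control and 7 to 13 in p53 KO libraries. Of these markers 3 rose in p53 KO against parental (KRT5, KRT6A and PKP1) and 3 against Ctrl cells (KRT6A, EGFR and PKP1). In Ctrl against parental cells 1 rose (KRT5) and 3 fell (KRT6A, KRT17 and EGFR). The shares of all genes that rose and fell were 9.77% and 8.36%, 15% and 14.2%, and 10.6% and 9.69% over these 3 comparisons. KRT6A, a keratin of activated epidermis, had log2 fold changes of 2.35 (adjusted p = 2.14e-07), 2.75 (adjusted p = 2.39e-08) and -0.40 (adjusted p = 0.0171) in that order, and the part of such keratinocyte genes in the connexin changes was not tested. The fibroblast list had 5 of 7 markers at no more than 3 counts, the leukocyte list 3 of 5, the melanocyte list 3 of 5 and the endothelial list 2 of 5, with PTPRC, KDR, LUM and DCN at 0 throughout. Above that were COL1A1 of the fibroblast list with 47 to 114 counts, CD68 of the leukocyte list with 15 to 42 and MITF of the melanocyte list with 143 to 360. PDGFRB with 0 to 4 counts, CD14 with 0 to 9, CDH5 with 1 to 9 and VWF with 0 to 13 also exceeded 3 but failed the filter on low counts. The endothelial marker VWF had 7 to 13 counts in Ctrl, 2 to 4 in parental and 0 to 2 in p53 KO libraries, and was not tested. PECAM1 of the endothelial list, with 1 to 13 counts, was higher in Ctrl than in parental cells (log2 fold change 1.68, adjusted p = 0.0250), and PMEL of the melanocyte list, with 20 to 43 counts, was higher in Ctrl than in both other lines (0.70 against parental, adjusted p = 0.0201, and -0.87 in p53 KO against Ctrl cells, adjusted p = 0.00401). Among libraries of one group, Ctrl replicate 1 differed most from its 2 companions, with a chi-square per degree of freedom across genes of 39.4 and 51.8, against 5.35 to 16.45 in the other pairs. Without it, each of the 6 connexins described here kept its side of the test in all 3 comparisons, and where a value moved it is given below.

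Levels are given as normalized CPM, the counts divided by the TMM-scaled library size and expressed as CPM. A gene passed the test when its p-value in the quasi-likelihood test of edgeR, adjusted by Benjamini-Hochberg over all 14513 genes tested, was at most 0.05. The fold threshold used in the study, a log2 fold change of more than 1.5 in size, was counted as a second and stricter rule. In p53 KO against parental cells 1 of the 6 connexins rose (GJB5) and 4 fell (GJA1, GJA3, GJB6 and GJC1), where 9.77% of all genes tested rose and 8.36% fell. In p53 KO against Ctrl cells 2 rose (GJB2 and GJB5) and 2 fell (GJA1 and GJB6), where 15% of all genes rose and 14.2% fell. In Ctrl against parental cells 1 rose (GJA1) and 3 fell (GJA3, GJB2 and GJC1), where 10.6% of all genes rose and 9.69% fell. GJA1 alone passed the stricter rule, and it did so in each of the 3 comparisons, beside 1.95%, 3.29% and 1.94% of all genes in the order given. The comparisons share libraries, so they are not independent of each other. The 6 genes were chosen with earlier results of these data known. Their counts beside the shares of all genes are therefore no test of connexins as a family. The median log2 fold change of the 6 genes was -0.72, 0.07 and -0.31 in that order, against 0.01, 0.01 and 0.00 over all genes tested.

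**Figure D1:**
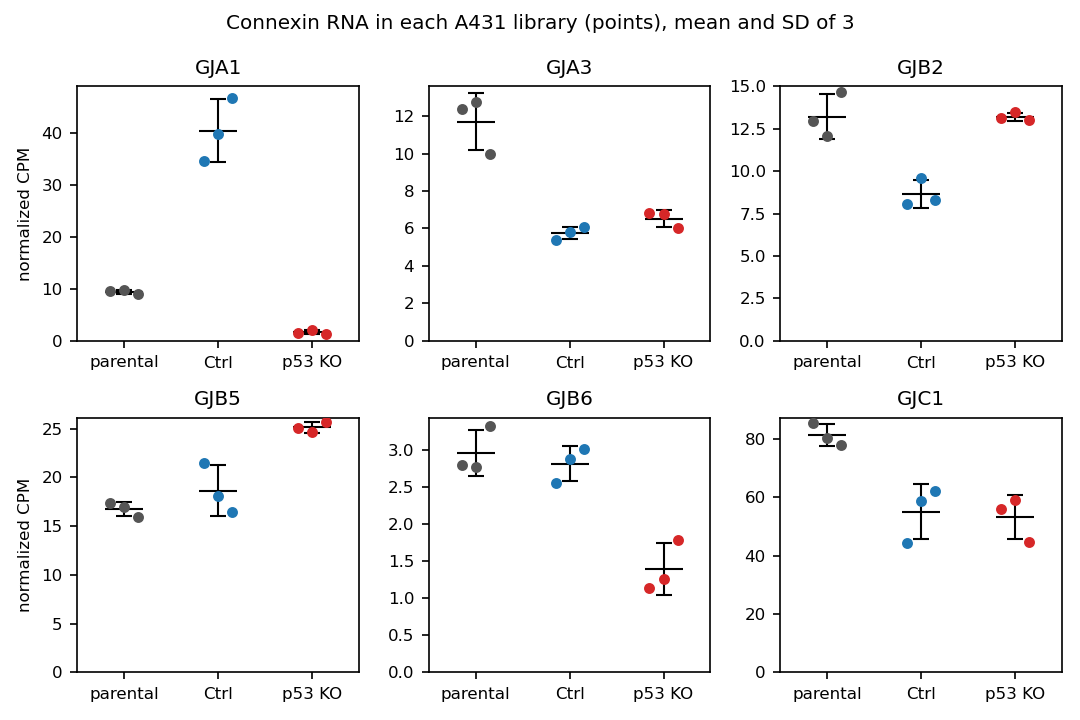
Normalized CPM (y axes, starting at 0 and scaled separately for each gene) of the 6 connexins in the 9 libraries (points), by group, with the mean (horizontal bar) and SD (error bars, n = 3). GJA1 separates all 3 groups, GJB5 and GJB6 set p53 KO libraries apart from both controls, GJB2 sets Ctrl libraries apart, and GJA3 and GJC1 are highest in parental libraries.

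GJA1 (ENSG00000152661; chromosome 6 of GRCh38, 121435595 to 121449727, plus strand) was lowest in p53 KO and highest in Ctrl cells. Its level was 9.60, 9.77 and 9.09 normalized CPM in the parental libraries. In the Ctrl libraries it was 34.8, 40.0 and 46.9, and in the p53 KO libraries 1.58, 2.13 and 1.39. No library of one group reached the range of another. The raw counts behind these levels were 197 to 254 for parental, 682 to 1229 for Ctrl and 28 to 56 for p53 KO libraries, so the p53 KO level is the least precise of the 3. Parental cells had a mean of 9.49 ± 0.355 (SD, n = 3), Ctrl cells one of 40.5 ± 6.06 and p53 KO cells one of 1.70 ± 0.385. Cells without p53 thus held 17.9% of the parental level and 4.19% of the Ctrl level of Cx43 RNA, while Ctrl cells held 4.27 times the parental level.

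The log2 fold change of GJA1 in p53 KO cells was -2.47 against parental (SE 0.17, adjusted p = 6.54e-06) and -4.56 against Ctrl cells (SE 0.16, adjusted p = 2.39e-08). In Ctrl against parental cells it was 2.10 (SE 0.13, adjusted p = 4.52e-06). The 2 control lines, which both keep mutant p53, thus differed in GJA1, in the direction opposite to that of p53 KO against parental cells. The genes with at least 10 counts in every library numbered 12792. None of these 12792 genes had a lower fitted log2 fold change than GJA1 in p53 KO against Ctrl cells, 4 had a lower one in p53 KO against parental cells, and 8 had a higher one in Ctrl against parental cells. Genes under 10 counts in any library, among them genes that were lost in one line, were not ranked. Reads that fit both GJA1 and its processed pseudogene GJA1P1 could be lost or split by the counting, and GJA1P1 had 0 counts in all libraries.

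**Figure D2:**
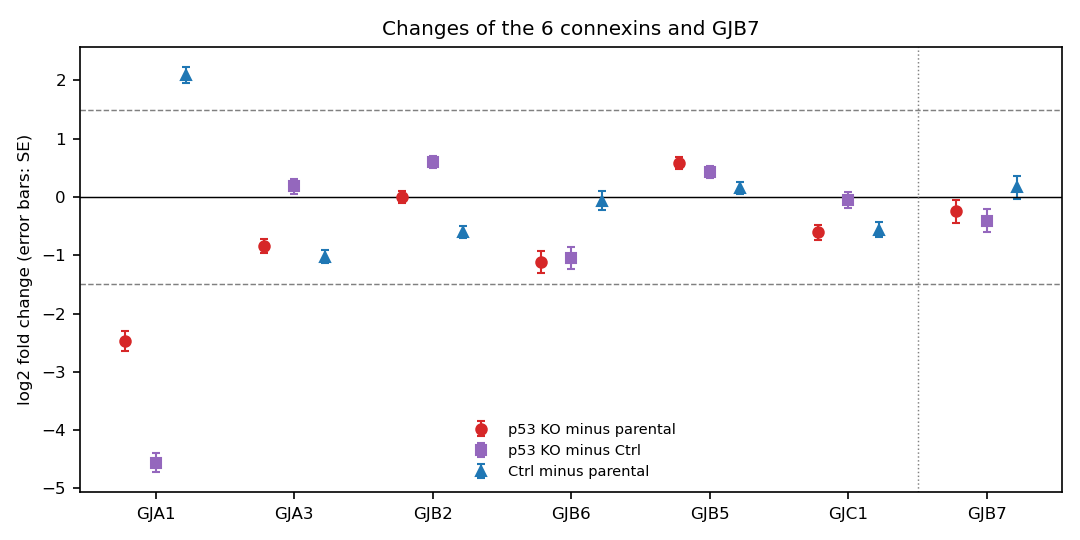
Log2 fold change (y axis) with its standard error (error bars) from edgeR in the 3 comparisons, for the 6 connexins (left of the dotted line) and GJB7 (right). Dashed lines mark a size of 1.5 in either direction. GJA1 lies beyond them in all 3 comparisons, at -2.47, -4.56 and 2.10, and the other 5 members and GJB7 lie between them.

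The promoter table of RefSeq (GRCh38.p14) held 4 of the 6 genes. The 250 bases before the RefSeq start of each are shown because GJA1 carries the largest differences, while GJA3, GJB2 and GJB6 lie side by side on chromosome 13 and moved differently from each other. They were searched on both strands for the Sp1 GC box (GGGCGG), the AP-1 site (TGANTCA), the TATA box (TATAAA) and the consensus of a p53 half-site. These 4 patterns were found in 42.6%, 6.57%, 10.7% and 5.57% of all 35116 promoters of the table. Capitals mark every match, whichever strand it is on, and each sequence runs 5′ to 3′ on the strand of its gene. The windows are chr6:121435396-121435645 (plus strand) for GJA1, chr13:20161053-20161302 (minus strand) for GJA3, chr13:20192939-20193188 (minus strand) for GJB2 and chr13:20230979-20231228 (minus strand) for GJB6. The gene positions in this text are from GENCODE 44, and the RefSeq starts lie 51 bases inside the GENCODE gene for GJA1 and 1387 bases inside it for GJB6, so these windows overlap the GENCODE genes, while the starts of GJA3 and GJB2 are the same in both.
GJA1: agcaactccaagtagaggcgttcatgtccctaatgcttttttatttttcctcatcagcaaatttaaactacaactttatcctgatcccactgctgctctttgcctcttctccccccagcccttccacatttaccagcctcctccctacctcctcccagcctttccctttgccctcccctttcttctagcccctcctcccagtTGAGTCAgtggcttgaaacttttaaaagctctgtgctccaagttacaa
GJA3: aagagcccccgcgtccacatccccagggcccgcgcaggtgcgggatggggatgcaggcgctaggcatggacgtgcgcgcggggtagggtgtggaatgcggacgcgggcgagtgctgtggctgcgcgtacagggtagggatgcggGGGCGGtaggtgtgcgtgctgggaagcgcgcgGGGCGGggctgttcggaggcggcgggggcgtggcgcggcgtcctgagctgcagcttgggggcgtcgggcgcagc
GJB2: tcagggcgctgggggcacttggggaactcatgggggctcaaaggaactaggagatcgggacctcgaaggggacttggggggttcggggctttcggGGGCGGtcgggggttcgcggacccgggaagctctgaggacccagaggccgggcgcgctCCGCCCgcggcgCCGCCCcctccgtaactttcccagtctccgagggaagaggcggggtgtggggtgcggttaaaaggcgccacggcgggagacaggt
GJB6: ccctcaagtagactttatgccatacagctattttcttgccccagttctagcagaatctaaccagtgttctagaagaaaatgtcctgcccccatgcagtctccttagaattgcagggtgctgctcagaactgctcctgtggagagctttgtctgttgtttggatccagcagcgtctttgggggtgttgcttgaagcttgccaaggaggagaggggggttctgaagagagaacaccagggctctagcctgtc

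The GJA1 window held 1 AP-1 site, 48 to 42 bases before the RefSeq start and inside the first bases of the GENCODE gene, and no GC box, TATA box or p53 half-site. GJA3 held 2 GC boxes and GJB2 held 3, while GJB6 held no match to any of the 4 patterns. The windows of GJA3 and GJB2 were rich in G and C (74.8% and 70.0%), and those of GJB6 and GJA1 were not (50.8% and 48.0%). A match describes letters and does not show that a factor binds there.

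GJB6, GJB2 and GJA3 lie within 94.1 kb of chromosome 13, all on the minus strand, with gaps of 26.4 kb between GJA3 and GJB2 and of 29.0 kb between GJB2 and GJB6. Each of the 3 had its own pattern: GJB6 was lower in p53 KO cells, GJB2 was lower in Ctrl cells, and GJA3 was lower in both derived lines than in parental cells.

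GJB6 (ENSG00000121742; 20221962 to 20232365) had 2.79, 2.77 and 3.32 normalized CPM in the parental and 2.55, 2.88 and 3.01 in the Ctrl libraries. In the p53 KO libraries it had 1.14, 1.26 and 1.79, all below the 6 control libraries. GJB6 fell in p53 KO cells by 1.11 on the log2 scale against parental (SE 0.19, adjusted p = 0.00199) and by 1.05 against Ctrl cells (SE 0.19, adjusted p = 0.00154), and these means are 47.1% and 49.5% of those of the controls. Ctrl and parental cells overlapped (log2 fold change -0.06, SE 0.17, adjusted p = 0.805). The counts of GJB6 were low, at 33 to 36 in p53 KO and 50 to 82 in control libraries.

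GJB2 (ENSG00000165474; 20187463 to 20192938), the frequent channel partner of GJB6, had 12.9, 12.0 and 14.7 normalized CPM in parental and 13.1, 13.5 and 13.0 in p53 KO libraries. These 2 groups overlapped, with a log2 fold change of 0.00 (SE 0.10, adjusted p = 0.998). In the Ctrl libraries it had 8.06, 9.59 and 8.31, below all the others. GJB2 was therefore higher in p53 KO than in Ctrl cells, by a log2 fold change of 0.60 (SE 0.11, adjusted p = 0.00133), and lower in Ctrl than in parental cells by the same amount (-0.60, SE 0.11, adjusted p = 0.00292).

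GJA3 (ENSG00000121743; 20138255 to 20161052) had 12.4, 12.8 and 9.97 normalized CPM in the parental libraries. It had 5.41, 5.80 and 6.06 in the Ctrl and 6.81, 6.77 and 6.00 in the p53 KO libraries, and these groups overlapped each other and lay below the parental libraries. GJA3 fell by a log2 fold change of 0.84 in p53 KO (SE 0.12, adjusted p = 0.000655) and of 1.02 in Ctrl cells (SE 0.12, adjusted p = 0.000227), each against parental cells. Between p53 KO and Ctrl cells the log2 fold change was 0.18 (SE 0.12, adjusted p = 0.302).

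GJB5 (ENSG00000189280; chromosome 1, 34755047 to 34758512, plus strand) was the member that rose in p53 KO cells against both controls. Its level was 25.1, 24.6 and 25.7 normalized CPM in p53 KO libraries. It was 17.3, 17.0 and 16.0 in parental and 21.5, 18.1 and 16.4 in Ctrl libraries, so that all p53 KO libraries were above all controls. The log2 fold change was 0.58 against parental (SE 0.10, adjusted p = 0.00243) and 0.43 against Ctrl cells (SE 0.10, adjusted p = 0.00751). Ctrl and parental libraries overlapped (log2 fold change 0.15, SE 0.10, adjusted p = 0.296). Ctrl replicate 1 was the highest of the control libraries, and without it p53 KO cells had a log2 fold change of 0.54 against Ctrl, and Ctrl had 0.04 against parental cells.

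GJC1 (ENSG00000182963; chromosome 17, 44798448 to 44830816, minus strand) resembled GJA3, with its highest level in parental cells. It had 85.3, 80.4 and 77.9 normalized CPM in the parental libraries. It had 44.3, 58.7 and 62.2 in the Ctrl and 55.8, 59.1 and 44.8 in the p53 KO libraries, all below the parental ones. Ctrl replicate 1 and p53 KO replicate 3 were the low libraries of their groups. GJC1 fell by a log2 fold change of 0.61 in p53 KO (SE 0.13, adjusted p = 0.00884) and of 0.56 in Ctrl cells (SE 0.13, adjusted p = 0.0148), each against parental cells. The p53 KO and Ctrl groups overlapped (-0.05, SE 0.13, adjusted p = 0.817). Without Ctrl replicate 1 the decrease in Ctrl cells was 0.43 (adjusted p = 0.00602), and without parental replicate 1 it was 0.52 and no longer passed (adjusted p = 0.0625).

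Levels of different connexins were compared per kilobase of exon, as normalized CPM per kb. In parental cells the order was GJB5 (12.4 ± 0.522, SD, n = 3), GJC1 (9.31 ± 0.431), GJB2 (5.34 ± 0.541), GJA1 (2.79 ± 0.105), GJA3 (2.24 ± 0.290) and GJB6 (0.906 ± 0.0955), and no neighbours in this order overlapped. In Ctrl cells GJA1 moved up to second place with 11.9 ± 1.78 and overlapped GJB5 (13.8 ± 1.90). In p53 KO cells GJA1 moved down to the fifth place with 0.500 ± 0.113 and overlapped GJB6 (0.426 ± 0.105), and GJC1 (6.11 ± 0.858) overlapped GJB2 (5.33 ± 0.0976). GJB5 stood first among the 6 genes in each group. The length used was that of all exons of a gene together, 3395 bases for GJA1 and 3270 for GJB6. Their longest transcripts have 3083 and 2130 bases. The order was not computed with other lengths, so the places of genes with close levels, such as GJA1 and GJB6 in p53 KO cells, rest on this choice.

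The sum of all 21 connexins on this scale, called the connexin pool here, came to 65.8 ± 1.73 for parental, 74.5 ± 2.60 for Ctrl and 73.7 ± 3.70 for p53 KO cells (SD, n = 3). GJA1 made up 4.18%, 4.39% and 4.17% of the pool in parental libraries. Its share was 13.5%, 15.5% and 19.3% in Ctrl libraries and 0.655%, 0.866% and 0.525% in p53 KO libraries. The groups did not overlap in this share, and the exact permutation test on both tails gave p = 0.1 for each pair of groups, the smallest p that 3 against 3 libraries allow. The pool itself was higher in p53 KO than in parental cells, at a log2 ratio of 0.17 and higher in Ctrl than in parental cells by 0.18 (exact permutation p = 0.1 for both), while p53 KO and Ctrl overlapped (exact permutation p = 0.9). Without division by length, the pool was lower in p53 KO than in parental cells, by a log2 ratio of -0.10 (exact permutation p = 0.1), that of Ctrl against parental cells was 0.04 (exact permutation p = 0.5) and that of p53 KO against Ctrl cells was -0.14 (exact permutation p = 0.1), so what the pool shows rests on the scale. Without GJA1 the pool per length came to 63.0 ± 1.67 for parental, 62.6 ± 4.29 for Ctrl and 73.2 ± 3.76 for p53 KO cells.

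**Figure D3:**
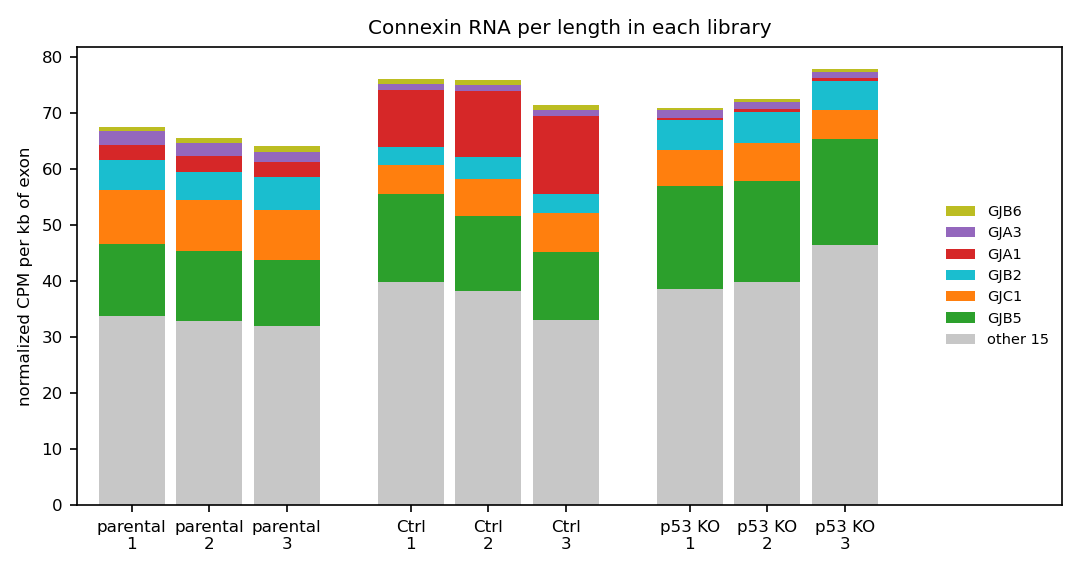
Normalized CPM per kb of exon (y axis) of all connexins, stacked, in each of the 9 libraries (x axis, by group and replicate). Connexins other than the 6 members are summed at the bottom, and the GJA1 part ranges from 0.525% to 0.866% of the bar in p53 KO and from 13.5% to 19.3% in Ctrl libraries.

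Of the 15 other connexins 11 never exceeded 4 counts, and 6 of these, among them GJB1 of liver and GJA4 of endothelium, had 0 counts in every library, which allows up to 3 counts. GJB7 passed the filter on low counts, with 37 to 61 counts per library. Its log2 fold changes were -0.25 in p53 KO against parental, -0.41 against Ctrl and 0.16 in Ctrl against parental cells, and it passed in no comparison (adjusted p from 0.143 to 0.550).

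Pannexins are channel proteins that resemble connexins in shape but not in sequence and mostly act as hemichannels, and 2 of the 3 pannexin genes passed the filter. PANX2 had 24.7, 23.8 and 22.1 normalized CPM in parental, 15.4, 13.6 and 13.6 in Ctrl and 10.2, 10.6 and 11.5 in p53 KO libraries. It fell in p53 KO cells by 1.14 on the log2 scale against parental (adjusted p = 2.07e-05) and by 0.40 against Ctrl cells (adjusted p = 0.00753), and in Ctrl against parental cells by 0.73 (adjusted p = 0.00033). PANX1 did not pass (log2 fold change 0.02 against parental, adjusted p = 0.929, and 0.33 against Ctrl cells, adjusted p = 0.114), and PANX3 had 0 counts.

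Proteins that bind, carry or turn over connexins were taken from a list of 25 genes, of which 23 passed the filter. In p53 KO against parental cells 1 rose and 4 fell, with a median log2 fold change of -0.08. Against Ctrl cells 2 rose and 5 fell, with a median of 0.02. In Ctrl against parental cells 2 rose and 3 fell, with a median of -0.13. Of all genes tested, 9.77% rose and 8.36% fell in the first comparison, 15% and 14.2% in the second and 10.6% and 9.69% in the third. TJP1, which encodes the Cx43-binding scaffold ZO-1, fell in p53 KO against parental cells by 0.66 on the log2 scale (SE 0.19, adjusted p = 0.0379) and had -0.24 against Ctrl cells (adjusted p = 0.390) and -0.42 in Ctrl against parental cells (adjusted p = 0.139). In Ctrl replicate 1 it had 150 normalized CPM, against 253 and 302 in the other Ctrl libraries. SGSM3, also known as CIP85, which takes part in the turnover of Cx43, had 43.0, 45.8 and 43.6 normalized CPM in parental, 64.7, 56.6 and 47.6 in Ctrl and 35.6, 34.3 and 34.3 in p53 KO libraries. Like GJA1, SGSM3 was highest in Ctrl and lowest in p53 KO cells, with log2 fold changes of -0.35 in p53 KO against parental (adjusted p = 0.0403), -0.69 against Ctrl (adjusted p = 0.00048) and 0.35 in Ctrl against parental cells (adjusted p = 0.0356).

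Of 22 kinases and phosphatases of the Cx43 tail, 21 passed the filter. Against parental cells 3 rose and 4 fell in p53 KO cells, with a median log2 fold change of -0.04. Against Ctrl cells 4 rose and 6 fell, with a median of -0.01. In Ctrl against parental cells 2 rose and 5 fell, with a median of 0.04. Beside these counts stand shares of all genes of 9.77% and 8.36%, 15% and 14.2%, and 10.6% and 9.69% in that order. The receptor phosphatase PTPRM rose in p53 KO cells by 1.04 on the log2 scale against parental (SE 0.17, adjusted p = 0.00177) and by 0.59 against Ctrl cells (SE 0.17, adjusted p = 0.0203), with 0.45 in Ctrl against parental cells (adjusted p = 0.0875). PRKCA, a protein kinase C, was lower in Ctrl cells (-0.76 against parental, adjusted p = 0.000233) and had a log2 fold change of -0.03 in p53 KO against parental cells (adjusted p = 0.858) and of 0.74 in p53 KO against Ctrl cells (adjusted p = 0.000124).

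Among 17 transcription factors known from connexin promoters 16 passed the filter. In p53 KO against parental cells 4 rose and 2 fell, with a median log2 fold change of 0.00. Against Ctrl cells 5 rose and 5 fell, with a median of -0.05. In Ctrl against parental cells 4 rose and 2 fell, with a median of 0.12. Shares of all genes that rose and fell were 9.77% and 8.36%, 15% and 14.2%, and 10.6% and 9.69% in that order. GRHL3, a factor of epidermal differentiation, had 13.7, 14.9 and 15.2 normalized CPM in parental, 26.5, 25.5 and 26.6 in Ctrl and 3.12, 4.49 and 2.98 in p53 KO libraries. GRHL3 thus had the same order of groups as GJA1, with log2 fold changes of -2.04 in p53 KO against parental (SE 0.14, adjusted p = 6.29e-06), -2.88 against Ctrl (SE 0.14, adjusted p = 1.78e-07) and 0.85 in Ctrl against parental cells (SE 0.12, adjusted p = 0.000792). TBX3, a T-box repressor, had 1.61 to 1.85 normalized CPM in parental, 3.88 to 5.41 in Ctrl and 8.09 to 9.36 in p53 KO libraries. It rose in p53 KO cells by 2.32 against parental (adjusted p = 4.45e-06) and by 0.93 against Ctrl cells (adjusted p = 0.00033) on the log2 scale, and in Ctrl against parental cells by 1.39 (adjusted p = 0.000204).

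The AP-1 subunits on that list are named because of the site printed above and after their values were seen. In p53 KO against parental cells JUN had a log2 fold change of -0.29 (adjusted p = 0.0572), JUNB 0.26 (adjusted p = 0.101) and FOSL1 -0.18 (adjusted p = 0.194), and JUND, FOS and FOSL2 had adjusted p from 0.307 to 0.750. In p53 KO against Ctrl cells JUN rose by 0.75 (adjusted p = 0.000187) and FOSL1 by 0.39 (adjusted p = 0.0084), and JUNB fell by 0.38 (adjusted p = 0.0154) and FOS by 0.33 (adjusted p = 0.0438). In Ctrl against parental cells JUN fell by 1.05 (adjusted p = 5.53e-05) and FOSL1 by 0.57 (adjusted p = 0.00179), and JUNB rose by 0.64 (adjusted p = 0.00161). Their part in the level of GJA1 was not tested.

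The nearest tested genes on either side were read from GENCODE 44. TBC1D32, 101 kb from GJA1, had log2 fold changes of 0.11, 0.12 and -0.01 in the 3 comparisons, taken in the order used above (adjusted p from 0.614 to 0.956). HSF2, 950 kb on the other side, had 0.26, 0.32 and -0.06 and passed in p53 KO against Ctrl cells alone (adjusted p = 0.0264). Beyond TBC1D32 and 2090 kb from GJA1, the mannosidase gene MAN1A1 was lower in p53 KO cells, with log2 fold changes of -2.97 relative to parental (adjusted p = 0.000173) and -2.69 relative to Ctrl cells (adjusted p = 0.000149), and had -0.29 in Ctrl against parental cells (adjusted p = 0.386), with 5 to 65 counts per library. Around the cluster on chromosome 13, ZMYM2, CRYL1, IFT88 and RP11-61K9.3 passed in no comparison (adjusted p from 0.124 to 0.940), and neither did RP3-425C14.4 beyond HSF2, ZSCAN20 on the left of GJB5 or CCDC43 and DBF4B on the left of GJC1 (adjusted p from 0.0565 to 0.899). Next to GJC1, EFTUD2 and KIF18B each passed in 1 comparison, with log2 fold changes of 0.25 in p53 KO against Ctrl (adjusted p = 0.0125) and -0.31 in Ctrl against parental cells (adjusted p = 0.0161).

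**Figure D4:**
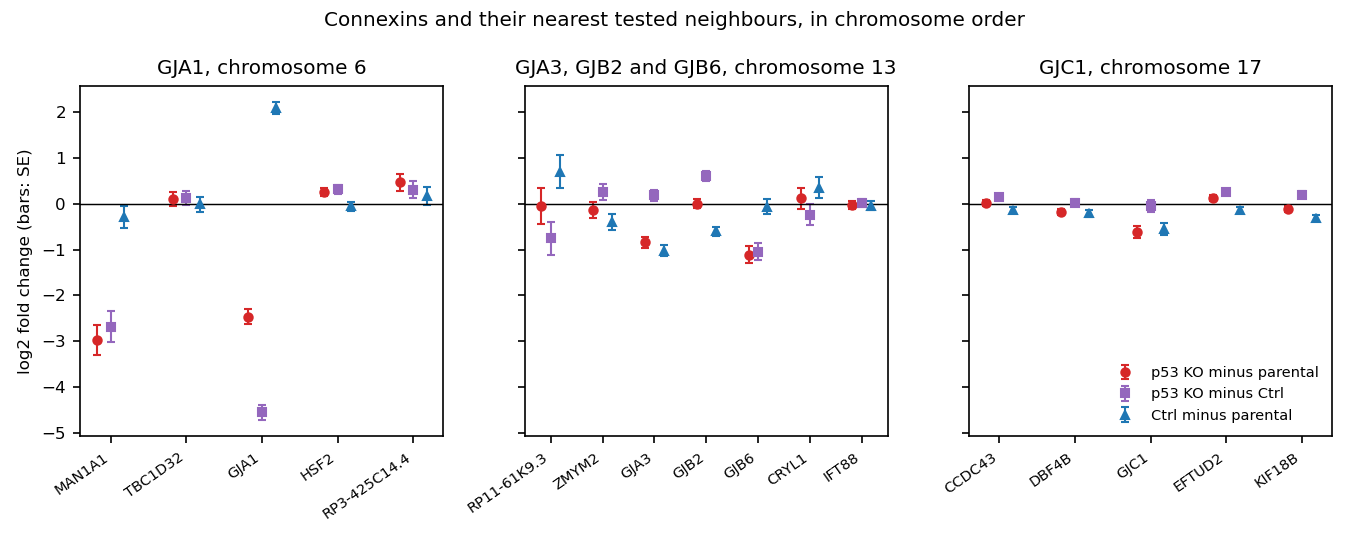
Log2 fold change (y axis) with its standard error (error bars) in the 3 comparisons for GJA1, the cluster on chromosome 13 and GJC1, each with 2 tested genes on either side, in the order of their starts on the chromosome (x axis, not to scale). TBC1D32 and HSF2 beside GJA1 lie within 0.32 of 0, while GJA1 lies at -2.47, -4.56 and 2.10.

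The genes with a pattern most like that of GJA1 were those with the smallest root mean square difference from it over the 3 log2 fold changes, among all genes tested. They were CALCRL (0.21), PCDH18 (0.47), the lncRNA AC010127.3 (0.56), KLF8 (0.65) and MANSC1 (0.66). The highest counts of CALCRL and PCDH18 were 28 and 45, so their folds are imprecise. MANSC1 had 45 to 60 counts in parental, 121 to 199 in Ctrl and 9 to 15 in p53 KO libraries, and KLF8 had 47 to 54, 71 to 152 and 3 to 13. Since the 5 genes were picked for these fold changes, their order of groups follows from the choice and is given without a test. CALCRL had 3 to 4 counts in parental, 0 to 2 in p53 KO and 11 to 28 in Ctrl libraries, so that it passed the filter through Ctrl libraries alone. PCDH18 had 8 to 12 counts in parental, 1 to 5 in p53 KO and 22 to 45 in Ctrl libraries, and it too needed the Ctrl libraries to pass. None of the other 5 members came that close, and GJB6, the only other member lower in p53 KO cells than in both controls, had -0.06 in Ctrl against parental cells where GJA1 had 2.10.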

How the data were processed

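RNA of A431 cells was measured in 9 poly(A) libraries, 3 per group, made with a strand-specific kit. Per the labels and the study's methods, the authors aligned reads with STAR 2.5.1b to GRCh38, and featureCounts assigned them to the genes of Ensembl release 85. The authors deposited these counts as whole numbers without normalization. The strand setting and the treatment of reads that map to several places are not given in the sources used here. Library totals ranged from 19783778 to 29840452 counts, and the limit of 3 counts given for genes at 0 covers counting error only.

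The main test was run with edgeR 4.0.16 under R 4.3.3 (filterByExpr by group at its minimum count of 10, TMM, 1 mean per group over all 9 libraries, quasi-likelihood test, Benjamini-Hochberg adjustment over 14513 genes). Standard errors follow from the F statistic. The fit was tested on simulated data. Alternatives were DESeq2 1.42.0, its size factors, other filters, the replicate number as a block, the 2 groups compared alone, a log2 threshold of 1, other lengths for sums over connexins, and each library left out in turn. Exon lengths and positions come from GENCODE 44, which held 14397 of the genes tested, and promoters from RefSeq. The genes named beside the 6 members were set by a rule: every other connexin past the filter, up to 5 members of each list past both thresholds with the largest change (otherwise 2), the 2 tested neighbours on each side and the 5 genes most like GJA1. The members and lists were chosen with earlier results of these data known. No sample was left out, and some genes that the rule names are not reported here. Figures were drawn with matplotlib 3.10.9.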

Additional observations from a re-analysis of the deposited data

Results flagged for a closer look

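The change relative to parental cells was not the same in p53 KO as in Ctrl cells for 4 of the 6 connexins. The test of that difference is p53 KO against Ctrl cells (edgeR's quasi-likelihood test, adjusted over all genes). In this comparison 15% of all genes tested rose and 14.2% fell. The difference, as a log2 fold change of p53 KO minus Ctrl, was -4.56 for GJA1, which fell in one line and rose in the other, -1.05 for GJB6, 0.60 for GJB2 and 0.43 for GJB5. Both lines were compared with the same parental libraries.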

How the results depend on the processing

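GJA1 kept its direction and passed under every alternative run, with a log2 fold change from -2.66 to -2.37 in p53 KO against parental, -4.76 to -4.45 against Ctrl and 1.98 to 2.19 in Ctrl against parental cells when each library was left out in turn. With a log2 threshold of 1 in place of 1.5, 2 connexins in place of 1 passed in each comparison. These were GJB6 beside GJA1 in p53 KO cells, and GJA3 beside GJA1 in Ctrl against parental cells. The share of all genes past this lower threshold is not given here. Values near 0 changed sign without passing. GJB2 in p53 KO against parental cells was -0.006 with DESeq2's size factors, -0.005 with DESeq2 and -0.001 when 10 counts were required of each library, and -0.071 to 0.079 with libraries left out. With libraries left out, GJC1 in p53 KO against Ctrl cells ranged from -0.180 to 0.060, GJB6 in Ctrl against parental cells from -0.112 to 0.022, and the connexin pool in p53 KO against Ctrl cells from -0.056 to 0.013. Without division by length the pool in p53 KO against parental cells was -0.099, and the cause was not tested. The number of connexins that passed was 3 to 4 in Ctrl against parental cells with libraries left out, since GJC1 was lost without parental replicate 1, and stayed at 5 and 4 in the other comparisons. The replicate numbers did not pair the libraries (correlation of deviations from the group means -0.348 to 0.041 over 9 same-numbered pairs, and 0 of 9 libraries closest to its own number in both other groups). Of all pairs from different groups, p53 KO replicate 3 and Ctrl replicate 1 had the highest correlation, at 0.395. These are also the low libraries of their groups for GJC1, and an effect shared by them was not tested. With the replicate number as a replicate block, GJA1 had -2.47, -4.56 and 2.09 and 5, 4 and 4 connexins passed, as without it. Depth limits GJA1 and GJB6 in p53 KO cells most, at 28 to 56 and 33 to 36 counts per library.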
